A study of Mus musculus with 16 samples.

Results

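Id1, Id2, Id3, Id4, Bmp4, Smad6, Tlx2, Msx1, Msx2 and Bambi were followed across mouse embryonic stem cells (mESCs) that differed in their DNA methyltransferases and in their culture medium. These 10 genes are the Id genes, the ligand Bmp4 and targets of bone morphogenetic protein (BMP) signalling, out of 21154 genes named on the array. They were chosen by name and chosen for their values: Id2 and Tlx2 stood out between the groups in earlier work on the same arrays, so the levels of Id2 and Tlx2 are given as a description with no test. The other 8 genes were tested where their probe could be measured.

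Total RNA was measured on 16 one-colour Agilent arrays in 6 groups, 1 array per sample. J1 is a wild-type (WT) male mESC line. TKO mESCs lack functional Dnmt1, Dnmt3a and Dnmt3b, and 3B3l mESCs (labelled 3B3-3l) are Dnmt3a/3b knockout cells that carry constitutively expressed exogenous Dnmt3b and Dnmt3l. Serum medium held 15% fetal calf serum (FCS) and 500 U/ml of leukaemia inhibitory factor (LIF). 2i cultures spent 2 weeks in serum-free N2B27 medium with the MEK inhibitor PD0325901 at 1 uM, the GSK3 inhibitor CHIR99021 at 3 uM and LIF at 1000 U/ml. The serum groups had 4 arrays of J1, 2 of TKO and 2 of 3B3l, and the 2i groups had 3, 3 and 2. J1 cells in serum grew on inactivated SNLP feeder cells, and the other 5 groups grew without feeders on gelatin. Each line is a single line, and the labels do not say that replicates came from separate cultures, so p-values measure the spread between these samples, which may be technical.

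BMP ligands bind paired type I and type II serine/threonine kinase receptors, which phosphorylate Smad1, Smad5 and Smad9. These Smads enter the nucleus with Smad4 and switch on target genes, among them the Id genes, Smad6, Smad7, Msx1, Msx2, Tlx2 and Bambi. Id proteins have a helix-loop-helix domain without a DNA-binding region and hold E proteins, the partners of many lineage transcription factors, in inactive pairs. In mESCs serum is a source of BMP activity, and Id proteins induced by it act together with LIF in holding back neural differentiation.

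The upstream sequence of 3 Id genes is shown because their levels in J1 differed between media in opposite directions: Id3 was called lower in 2i and Id4 higher, and Id2, given with no test, was lower. RefSeq promoter windows of build GRCm38.p6 were matched for 7 of the 10 members (Id2, Id3, Id4, Bmp4, Smad6, Msx1 and Msx2). The 250 bases before the annotated start are printed 5′ to 3′ on the strand of the gene, with motif matches in capitals.
Id2, chr12:25096093-25096342, minus strand: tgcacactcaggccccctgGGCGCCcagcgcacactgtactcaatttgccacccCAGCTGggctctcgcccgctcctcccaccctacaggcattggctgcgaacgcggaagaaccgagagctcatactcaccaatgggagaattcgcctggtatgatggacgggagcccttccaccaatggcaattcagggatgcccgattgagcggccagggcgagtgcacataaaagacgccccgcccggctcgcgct
Id3, chr4:136143572-136143821, plus strand: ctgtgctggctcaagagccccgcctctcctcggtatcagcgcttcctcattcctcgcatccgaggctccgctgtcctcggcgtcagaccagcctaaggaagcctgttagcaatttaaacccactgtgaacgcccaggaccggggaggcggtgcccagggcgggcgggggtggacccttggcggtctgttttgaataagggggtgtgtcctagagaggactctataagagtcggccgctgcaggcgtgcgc
Id4, chr13:48260866-48261115, plus strand: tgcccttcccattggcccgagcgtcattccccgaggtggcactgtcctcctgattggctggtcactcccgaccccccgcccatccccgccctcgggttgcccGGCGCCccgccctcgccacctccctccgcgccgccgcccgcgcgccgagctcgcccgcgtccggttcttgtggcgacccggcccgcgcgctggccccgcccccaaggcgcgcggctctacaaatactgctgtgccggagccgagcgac
The motifs searched were the Smad1/5 site GGCGCC, the Smad-binding element CAGACA, the E box CAGCTG, the E box CACGTG, the TCF/LEF site CTTTGAT and the TATA box TATAAA. Both strands were searched, and the matches did not overlap each other. Counted back from the start, GGCGCC matched once in Id2 (-231 to -226) and once in Id4 (-148 to -143). CAGCTG matched once in Id2 (-196 to -191) and CACGTG once in Bmp4 (-188 to -183). No motif of the search matched in Id3, Smad6, Msx1 or Msx2. Of the 32851 RefSeq windows of this length, 9.59% held GGCGCC, 17.1% CAGACA, 13% CAGCTG, 6.02% CACGTG, 3.21% CTTTGAT and 12.4% TATAAA. The Id4 window held 35 CG dinucleotides, against 18 each in Id2 and Id3.

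Levels are log2 processed signal minus the 75th percentile of the same array, so a level of 0 is the signal that 75% of spots lie under. A probe was tested where 1 or more groups had it well above background throughout. A gene was called changed at a limma adjusted p of at most 0.05, Benjamini-Hochberg adjusted over all tested probes, with a difference of at least 2-fold. The 10 members had 11 probes, none saturated. Id1, Id3, Id4, Bmp4, Msx1 and Msx2 were the 6 tested members not named in the rule for their values, and counts of members below are over these 6. The second Bmp4 probe, Smad6 and Bambi were not tested, since their signals lay at or near background.

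The arrays were alike in signal: their 75th percentiles ranged from 1019 to 1797 intensity units, with 39.7% to 49% of spots well above background. All 10 mESC markers on the list were well above background on all 16 arrays. Dnmt3a stayed at background throughout the TKO and 3B3l arrays. The probes of Dnmt1 and Dnmt3b were well above background on all 5 TKO arrays, with mean levels of -1.68 in serum and -1.55 in 2i for Dnmt1 and of -0.34 and -0.64 for Dnmt3b, so at these probes the RNA of both genes was lower in TKO than in J1 (1.81 and 2.38 for Dnmt1, 2.96 and 0.63 for Dnmt3b) but present. Dnmt3b was highest in 3B3l, with mean levels of 5.53 in serum and 5.82 in 2i. Feeder fibroblast markers (15 genes) summed to between 55.6 and 81.1 times the 75th percentile signal in J1-serum, 33.3 to 39.2 in J1-2i, 40.9 to 41.5 in TKO-serum, 43.9 to 47.8 in TKO-2i, 54.1 to 59.4 in 3B3l-serum and 29.9 to 33.4 in 3B3l-2i. Sparc, one of the 15, was well above background on all 16 arrays and makes up much of each sum, with mean levels of 5.55 in J1-serum, 5.07 in J1-2i, 5.19 in TKO-serum and 5.53 in 3B3l-serum. In J1-serum 10 of them were well above background on every array, while Lum, Fbn1, Fap and Prrx1 were above it on none. Primitive endoderm markers (9 genes) summed to between 41.4 and 51.9 in J1-serum and to between 4.82 and 12.1 in the 5 other groups. The arrays lay on 3 slides scanned on 2 days. All J1-2i, TKO-serum and TKO-2i arrays and J1-serum replicates 2 to 4 were on slides 1 and 2, and all 3B3l arrays were on slide 3 with J1-serum replicate 1. Array median scaling in place of the 75th percentile moved the share of all calls that were higher in J1-2i than in J1-serum from 44.5% to 55.7%.

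Id1, a widely used readout of BMP-Smad signalling, fell from serum to 2i in each of the 3 lines. In J1-serum the 4 arrays read 2.50, 2.26, 2.24 and 2.37, and in J1-2i the 3 arrays read -0.50, -0.70 and -1.05. TKO-serum read 2.65 and 2.69, and TKO-2i read 0.80, 0.66 and 0.51. 3B3l-serum read 3.77 and 3.85, and 3B3l-2i read 1.40 and 1.69. The 6 groups did not overlap, and every 2i array of each line lay below every serum array of the 3 lines. Id1 fell by 3.09 ± 0.13 on the log2 scale (SE) in J1, 8.52-fold, with a limma adjusted p of 1.2e-09. It fell by 2.01 ± 0.16 in TKO (4.04-fold, adjusted p = 6.7e-07) and by 2.26 ± 0.17 in 3B3l (4.8-fold, adjusted p = 8e-07). Within slides the J1 difference was -3.08 on slide 1 and -2.96 on slide 2, and the TKO difference on slide 1 was -2.09. In RNA from whole cultures, fewer cells that express a gene and less of its RNA per cell cannot be told apart.

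Id2, an inhibitor of E proteins in many lineages, was chosen because it stood out between the groups. J1-serum read 2.40, 1.94, 2.10 and 2.14, and J1-2i read -2.01, -1.81 and -2.18. TKO-serum read 3.08 and 2.55, and TKO-2i read -0.997, -0.52 and -0.67. 3B3l-serum read 3.79 and 3.66, and 3B3l-2i read -1.61 and -2.24, the last of which was not well above background. The serum groups ranked 3B3l, TKO and J1 with no overlap, whereas in 2i TKO was highest and the ranges of 3B3l and J1 overlapped. The fitted 2i minus serum difference was -4.14 ± 0.18 in J1 (17.7-fold lower), -3.54 ± 0.22 in TKO (11.7-fold lower) and -5.65 ± 0.24 in 3B3l (50.4-fold lower, with 1 of the 2 3B3l-2i arrays well above background).

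Id3, a close relative of Id1 in BMP response, moved less with the medium and more with the line. J1-serum read 1.81, 2.28, 2.40 and 2.06, and J1-2i read 1.27, 1.41 and 0.52. TKO-serum read 3.00 and 2.97, and TKO-2i read 2.15, 2.24 and 2.71. 3B3l-serum read 4.83 and 4.66, and 3B3l-2i read 4.21 and 3.41. Both 3B3l groups lay above all other arrays, and TKO-2i overlapped J1-serum. Id3 fell by 1.07 ± 0.24 in J1 (2.1-fold, limma adjusted p = 0.0028). This call did not reach 2-fold without J1-2i replicate 3 (-0.80), without J1-serum replicate 3 (-0.98) or with array median scaling (-0.91). The 2i minus serum difference of Id3 was -0.61 ± 0.29 in TKO (adjusted p = 0.14) and -0.94 ± 0.32 in 3B3l (adjusted p = 0.05), neither of which was called. Without 3B3l-2i replicate 1 the 3B3l difference was -1.34 and was called.

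Id4, the Id gene best known from neural progenitors, ran the other way. J1-serum read -1.14, -0.84, -1.04 and -1.04, and J1-2i read 1.40, 1.35 and 1.41. TKO-serum read -0.68 and -0.62, and TKO-2i read 0.85, 1.07 and 1.23. 3B3l-serum read -0.28 and -0.24, and 3B3l-2i read -0.06 and -0.39. In J1 and TKO every 2i array lay above every serum array, while in 3B3l the ranges overlapped. Id4 rose by 2.40 ± 0.11 in J1 (5.29-fold, limma adjusted p = 2.8e-09) and by 1.69 ± 0.13 in TKO (3.24-fold, adjusted p = 7.3e-07). In 3B3l the difference was 0.04 ± 0.15 (adjusted p = 0.92). On slide 1 the Id4 difference was 2.44 in J1 and 1.80 in TKO, and on slide 2 it was 2.19 in J1.

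**Figure D1:**
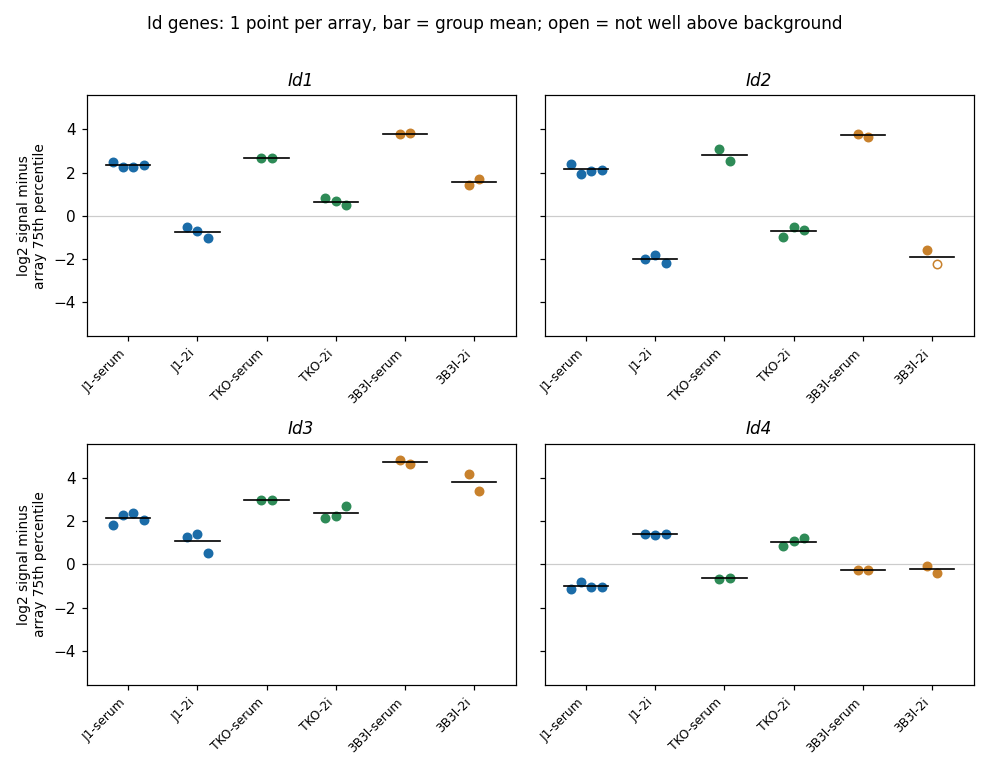
Levels of Id1, Id2, Id3 and Id4 (log2 signal minus the array's 75th percentile, vertical axis) on each of the 16 arrays in 6 groups, with 1 point per array, a bar at each group mean and open points where the probe was not well above background. In every line Id1 and Id2 lay lower in 2i, Id3 was highest in both 3B3l groups (means of 4.75 and 3.81), and Id4 was highest in J1-2i (1.39) and TKO-2i (1.05).

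Bmp4, the BMP ligand, differed between lines rather than between media. J1-serum read 2.19, 2.53, 2.46 and 2.36, and J1-2i read 2.66, 2.28 and 2.39. TKO-serum read 2.29 and 2.65, and TKO-2i read 3.04, 3.21 and 3.28. 3B3l-serum read 4.77 and 4.48, and 3B3l-2i read 4.52 and 4.53. The 4 3B3l arrays lay above all 12 others, and J1-serum, J1-2i and TKO-serum overlapped. The 2i minus serum difference of Bmp4 was 0.06 ± 0.13 in J1 (limma adjusted p = 0.73) and -0.10 ± 0.17 in 3B3l (adjusted p = 0.79). In TKO it was 0.70 ± 0.16 (1.63-fold, adjusted p = 0.0037), below the 2-fold limit. The second Bmp4 probe read between -5.04 and -4.08 on all 16 arrays and was not well above background on any, so it shows none of the differences of the first.

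Tlx2, a homeobox gene induced by BMP in the primitive streak, was chosen because it stood out between the groups. The serum arrays were not well above background in any line, with levels from -4.89 to -3.74 in J1, from -4.90 to -3.99 in TKO and from -4.26 to -3.32 in 3B3l. J1-2i read -0.9997, -1.13 and -1.17, TKO-2i read 0.67, 0.54 and 0.27, and 3B3l-2i read 3.15 and 3.12. The 2i groups ranked 3B3l, TKO and J1 without overlap. Since the serum side has only a bound, taken from the lowest signal well above background on each array, Tlx2 was higher in 2i by at least 3.42-fold in J1. The TKO bound was at least 16.4-fold and the 3B3l bound at least 46.9-fold. The 2i minus serum direction of Tlx2 was thus opposite to that of Id1 and Id2, which are also known BMP targets. Markers of primitive streak and mesoderm were called higher in 2i as well, 2 of 5 tested in J1 (Eomes and Gsc) and 3 of 5 in TKO and in 3B3l (T, Eomes and Gsc), and none was called lower, where 22.7%, 15.8% and 13.6% of all tested genes were called in J1, TKO and 3B3l. Their part in the Tlx2 levels was not tested.

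Msx1 and Msx2, paired homeobox genes downstream of BMP in many tissues, differed from each other. Msx1 read between -1.06 and -0.24 on all 16 arrays, the group ranges overlapped down the whole order of means, and its 2i minus serum differences were 0.08 ± 0.16 for J1, -0.10 ± 0.19 for TKO and -0.27 ± 0.21 for 3B3l (limma adjusted p of 0.72, 0.73 and 0.44). For Msx2 J1-serum read -0.84, -1.47, -1.44 and -0.96, and J1-2i read -3.30, -2.82 and -2.94, none of the last 3 well above background. TKO-serum read -1.50 and -1.43, and TKO-2i read -2.38, -1.53 and -1.80, the first of which was not well above background. 3B3l-serum read -0.18 and -0.93, and 3B3l-2i read -0.02 and 0.04. Msx2 fell in J1 by at least 3.55-fold (adjusted p = 3e-05), and the differences of -0.44 ± 0.28 in TKO (adjusted p = 0.27) and 0.56 ± 0.31 in 3B3l (adjusted p = 0.24) were not called.

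Smad6, an inhibitory Smad induced by BMP as feedback, was well above background on 1 of 16 arrays, a TKO-serum array that read -1.82, while the other TKO-serum array read -3.02. On the remaining arrays it read between -4.68 and -2.68, and no fold was computed between groups. Bambi, a pseudoreceptor that blocks BMP and related signals, read between -5.12 and -4.18 and was well above background on none of the 16 arrays.

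**Figure D2:**
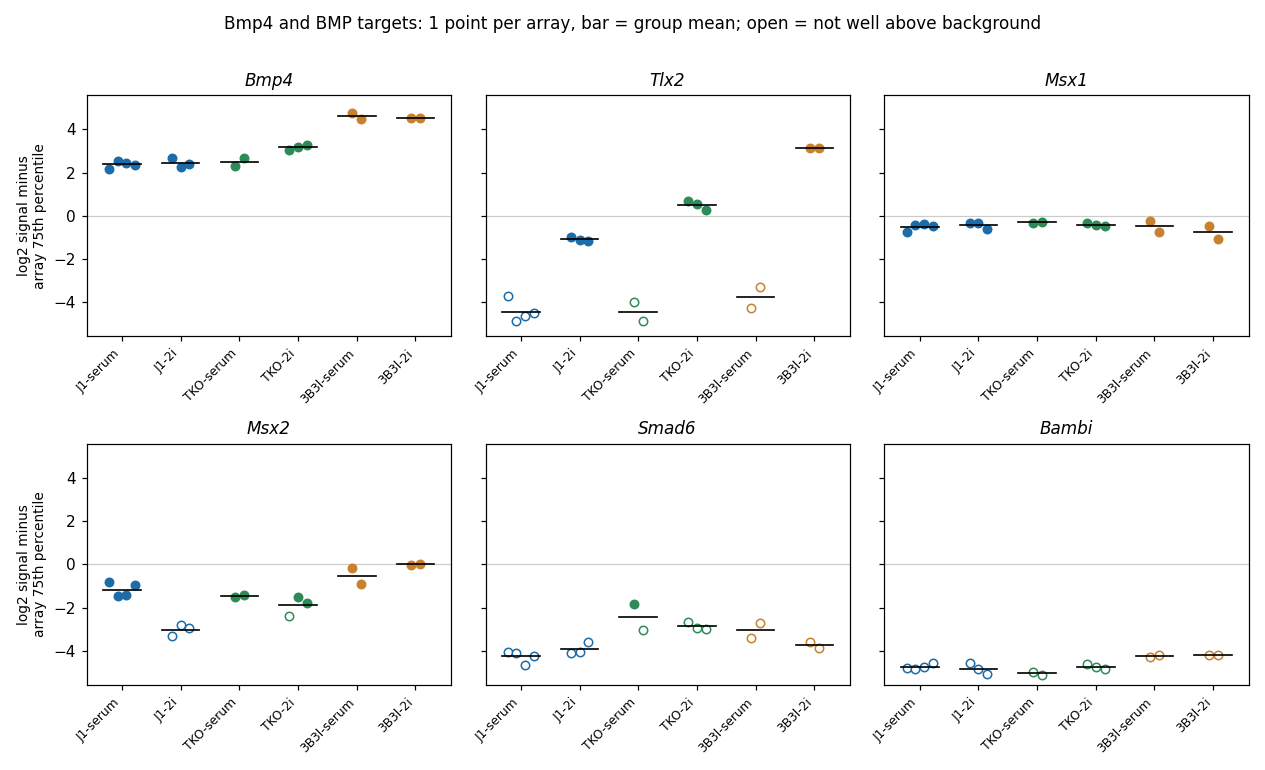
Levels of Bmp4, Tlx2, Msx1, Msx2, Smad6 and Bambi (log2 signal minus the array's 75th percentile, vertical axis) on each of the 16 arrays in 6 groups, with 1 point per array, a bar at each group mean and open points where the probe was not well above background. Bmp4 was highest in both 3B3l groups (means of 4.62 and 4.53), Tlx2 was above background in the 2i groups alone, and Msx1 stayed between -1.06 and -0.24.

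Counted over the 6 tested members, 4 were called between 2i and serum in J1 (Id4 higher, and Id1, Id3 and Msx2 lower), where 22.7% of all tested genes were called. In TKO 2 were called (Id4 higher and Id1 lower), against 15.8% of all tested genes. In 3B3l 1 was called (Id1, lower), against 13.6%. The median 2i minus serum difference of all 13875 tested genes was 0.05 in J1, 0.07 in TKO and 0.0031 in 3B3l on the log2 scale. J1-serum grew on feeders, and in J1-2i 8 of 10 tested feeder markers, 9 of 9 primitive endoderm, 1 of 7 neural and 3 of 6 trophoblast markers were called lower than in J1-serum, while 1 trophoblast marker (Tfap2c) was called higher. Foxa2 and Pdgfra of the primitive endoderm list and Dcn of the feeder list were well above background throughout J1-serum and throughout no other group. A lower level than J1-serum was thus built into their choice, here and in later marker counts that involve J1-serum. In TKO 5 of 9 primitive endoderm, 3 of 10 feeder, 3 of 7 neural and 3 of 6 trophoblast markers were called lower in 2i, and Cdx2 of the trophoblast list was called higher. In 3B3l 3 of 9 primitive endoderm, 3 of 10 feeder, 4 of 7 neural and 4 of 6 trophoblast markers were called lower, and Pdgfrb of the feeder list was called higher. The primitive streak markers called higher in 2i are those given beside Tlx2. The part of these markers in the members' differences was not tested.

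**Figure D3:**
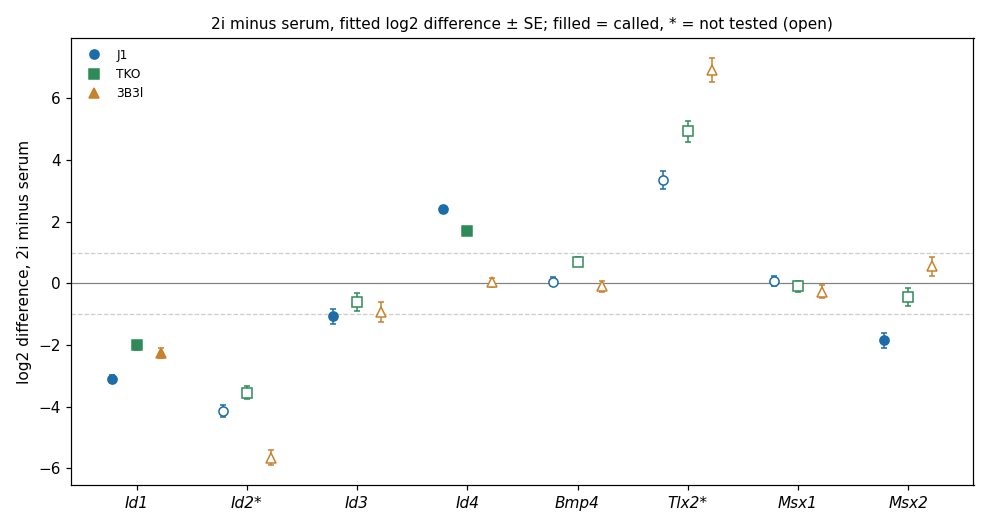
Fitted 2i minus serum difference (log2, vertical axis) of 8 members in J1 (circles), TKO (squares) and 3B3l (triangles), with bars of 1 SE, filled where called, dashed lines at 2-fold and an asterisk on the 2 genes given with no test. Id1 was called in all 3 lines (-3.09, -2.01 and -2.26), and Id4 was called in J1 (2.40) and TKO (1.69) with a difference of 0.04 in 3B3l.

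Whether the 2i response itself differed between lines was tested as a difference of responses, and both of these comparisons share the J1 arrays. Between TKO and J1, 2 of 6 members were called, where 15.3% of all tested genes were. The response of Id1 was 1.08 ± 0.21 higher in TKO (limma adjusted p = 0.002), so its fitted fall was smaller in TKO. Msx2 was called as well (adjusted p = 0.014), but its J1-2i signal lay at background, so the J1 fall has only a bound and no size is given for the difference. The Id1 value was under 2-fold without J1-2i replicate 3 (0.93), with array median scaling (0.94), with normexp background correction (0.91), with slide as a fixed block (0.995) and with array quality weights (0.97). The Msx2 call was lost without TKO-serum replicate 1 (adjusted p = 0.051), with normexp and under the replicate block (adjusted p = 0.056). The response of Id4 differed by -0.71 ± 0.17 (adjusted p = 0.0095), under the 2-fold limit. In J1-2i 7 of 9 primitive endoderm markers were well above background on no array, so the median of that list is not a size. In the same comparison 9 of 9 primitive endoderm markers and 7 of 10 feeder markers were called higher (medians of 3.25 and 2.33), 3 of 7 neural markers lower, and the trophoblast and primitive streak lists had 1 each higher and 2 and 1 lower. Their part in these differences was not tested.

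Between 3B3l and J1, 2 of 6 members were called in the difference of responses, against 17.3% of all tested genes. The Id4 response was lower in 3B3l by 2.37 ± 0.18 (a difference of -2.37, limma adjusted p = 1.5e-06). Msx2 was called higher (adjusted p = 0.00058), again with no size given because of J1-2i. All 3B3l arrays were on slide 3, so this response lay within 1 slide. With slide as a fixed block the Id4 value was -2.32 (adjusted p = 1.2e-05), and the adjusted p of Msx2 was 0.0013. The Id1 difference was 0.83 ± 0.22 (adjusted p = 0.013), under 2-fold, and the Id3 difference was 0.14 ± 0.40 (adjusted p = 0.84). For Id2, with no test, the 3B3l response was lower than that of J1 (difference -1.51 ± 0.30), with 1 of the 2 3B3l-2i arrays well above background. For Tlx2 no such difference is given, since it was not well above background in serum in either line. The median of the primitive endoderm list is again not a size, because of J1-2i. Here too 9 of 9 primitive endoderm and 6 of 10 feeder markers were called higher (medians of 3.68 and 1.59), 4 of 7 neural and 5 of 6 trophoblast markers lower, 1 trophoblast marker higher, and 1 primitive streak marker in each direction. Their part in these differences was not tested.

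Between TKO and J1 in serum none of the 6 tested members was called, against 16.5% of all tested genes, while 3 had an unadjusted limma p under 0.05. The ranges of Id1, Id3, Id4 and Msx1 did not overlap. Id3 was 0.85 ± 0.28 higher in TKO-serum (1.8-fold, adjusted p = 0.028) and Id4 0.37 ± 0.13 higher (1.29-fold, adjusted p = 0.036), both under 2-fold. Id1 was 0.33 ± 0.15 higher (adjusted p = 0.1). With no fold limit the count was 2 of 6, Id3 and Id4. For the counts by unadjusted p, by overlap and with no fold limit, no share over all tested genes is given. These counts are thus a description only. Id2, with no test, was 0.67 ± 0.21 higher in TKO-serum, and its ranges did not overlap. Of the markers of other cell types, 9 of 9 primitive endoderm, 7 of 10 feeder and 2 of 6 trophoblast markers were called lower in TKO-serum than in J1-serum, 4 of 7 neural markers higher and no primitive streak marker either way.

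In 2i, TKO and J1 differed in 3 of 6 members, all higher in TKO, against 7.34% of all tested genes called. Id1 was 1.41 ± 0.14 higher (2.65-fold, limma adjusted p = 1.6e-05) and Id3 1.30 ± 0.26 higher (2.47-fold, adjusted p = 0.0032). Msx2 was at least 2.15-fold higher (adjusted p = 0.007), since J1-2i was not well above background. The Msx2 difference of 1.12 fell under 2-fold without J1-2i replicate 1 (0.98), without TKO-2i replicate 2 (0.93) and with normexp (0.74). Bmp4 was 0.73 ± 0.14 higher in TKO-2i (1.66-fold, adjusted p = 0.0023), under the limit. Within slides the Id1 difference was 1.36 on slide 1 and 1.50 on slide 2, and the Id3 difference was 1.58 and 0.74. For Msx2, with J1-2i at background, the values were 1.46 on slide 1 and 0.44 on slide 2. Tlx2, with no test, was 3.02-fold higher in TKO-2i than in J1-2i. No primitive endoderm marker was called between TKO-2i and J1-2i, while the feeder list had 2 higher and 1 lower, the neural list 2 higher, and the trophoblast and primitive streak lists 1 in each direction.

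3B3l stood above J1 in serum in 3 of 6 members, Id1, Id3 and Bmp4, where 19.3% of all tested genes were called. Id1 was 1.47 ± 0.15 higher (2.77-fold, limma adjusted p = 5.5e-06), Id3 was 2.61 ± 0.28 higher (6.12-fold, adjusted p = 7.8e-06) and Bmp4 was 2.24 ± 0.15 higher (4.73-fold, adjusted p = 1.5e-07). Id4 was 0.75 ± 0.13 higher (1.68-fold, adjusted p = 0.00035), under the limit. Against the 1 J1-serum array that shared slide 3 with 3B3l, the differences were 1.31 for Id1, 2.94 for Id3, 2.44 for Bmp4 and 0.88 for Id4. The median difference of all tested genes was 0.13 in this comparison. Other markers moved too: 9 of 9 primitive endoderm and 6 of 10 tested feeder markers were called lower in 3B3l-serum than in J1-serum, and 5 of 6 tested trophoblast, 3 of 7 neural and 1 of 5 primitive streak markers (T) higher. Their part in these differences was not tested.

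In 2i, 3B3l differed from J1 in 5 of 6 members, against 14.4% of all tested genes called. Id1 was 2.30 ± 0.16 higher (4.92-fold, limma adjusted p = 5.3e-07), Id3 2.75 ± 0.29 higher (6.72-fold, adjusted p = 1.7e-05) and Bmp4 2.08 ± 0.16 higher (4.24-fold, adjusted p = 1.1e-06). Msx2 was at least 8.05-fold higher (adjusted p = 6.3e-06). Id4 was lower, with a difference of -1.62 ± 0.13 (3.06-fold, adjusted p = 2.4e-06). No slide held both groups. With slide as a fixed block, where J1-serum replicate 1 alone ties slide 3 to the others, the differences were 2.09 for Id1, 3.19 for Id3, 2.345 for Bmp4, 2.57 for Msx2 and -1.45 for Id4, all called. Id2 differed by 0.07 ± 0.22, with no test and with 1 of the 2 3B3l-2i arrays well above background. Tlx2, with no test, was 4.24 ± 0.35 higher (18.9-fold), and 3.29 higher with slide as a fixed block. Of the other cell types' markers, those called higher and lower in 3B3l-2i than in J1-2i were 4 and 2 of the feeder list, 2 and 1 of primitive endoderm, 1 and 2 of the neural list, and 1 and 1 each of trophoblast and primitive streak. Their part in these differences was not tested.

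**Figure D4:**
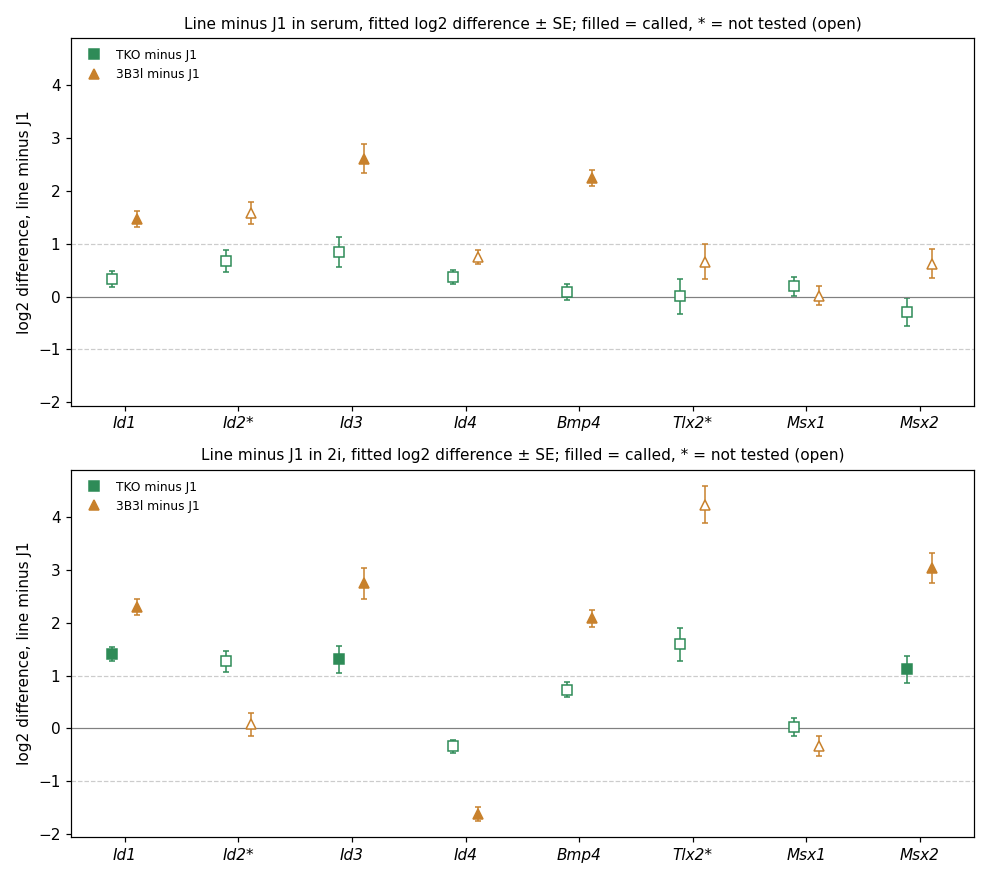
Fitted difference of TKO (squares) and 3B3l (triangles) from J1 (log2, vertical axis) for 8 members in serum (upper panel) and in 2i (lower panel), with bars of 1 SE, filled where called, dashed lines at 2-fold and an asterisk on the 2 genes given with no test. Id1, Id3 and Bmp4 were called higher in 3B3l in both media, and Id4 was called lower in 3B3l in 2i (-1.62).

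Against TKO in serum, 3B3l was higher in Id1, Id3 and Bmp4 (3 of 6 members), where 10.7% of all tested genes were called. Bmp4 was 2.15 ± 0.17 higher (4.44-fold, limma adjusted p = 2.3e-06) and Id3 1.77 ± 0.32 higher (3.4-fold, adjusted p = 0.0015). Id1 was 1.14 ± 0.17 higher (2.2-fold, adjusted p = 0.00043), a call that was lost with quantile normalization (0.94), normexp (0.94), the authors' table (0.95) and slide as a fixed block (0.90, adjusted p = 0.054). Msx2 was 0.91 ± 0.31 higher and not called (adjusted p = 0.045), and was called without 3B3l-serum replicate 2 (1.29). The median difference of all tested genes was 0.13. Of the markers of other cell types, 6 of 10 tested feeder markers, 3 of 6 trophoblast markers and 2 of 5 primitive streak markers (T and Eomes) were called higher in 3B3l-serum than in TKO-serum, while Twist1 of the feeder list was called lower. Of 7 neural markers Nes was called higher and Pax6 and Map2 lower, and no primitive endoderm marker was called. Their part in these differences was not tested.

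In 2i, 3B3l differed from TKO in 4 of 6 members, against 9.98% of all tested genes called: Id3, Bmp4 and Msx2 were higher and Id4 was lower. Id3 was 1.44 ± 0.29 higher (2.72-fold, limma adjusted p = 0.0029), Bmp4 1.35 ± 0.16 higher (2.55-fold, adjusted p = 4.5e-05) and Msx2 1.91 ± 0.28 higher (3.75-fold, adjusted p = 0.00033). The Id4 difference was -1.28 ± 0.13 (2.42-fold lower, adjusted p = 2e-05). Id1 was 0.89 ± 0.16 higher (1.85-fold, adjusted p = 0.0012), and reached 2-fold without 3B3l-2i replicate 1 (1.04). With slide as a fixed block Id3, Bmp4 and Id4 kept their calls (1.88, 1.61 and -1.11) and Msx2 did not (1.45, adjusted p = 0.062). Id2, with no test, was 2.29-fold lower in 3B3l-2i than in TKO-2i, with 1 of the 2 3B3l-2i arrays well above background. Markers called higher in 3B3l-2i were 2 each of the feeder, primitive endoderm and primitive streak lists and 1 of the trophoblast list, and those called lower were 1 each of primitive endoderm, primitive streak and neural. Their part in these differences was not tested.

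The rest of the BMP pathway was read from 65 listed genes that are not members, of which 43 were tested. Between 2i and serum 21 of 43 were called in J1 (4 higher and 17 lower), 13 in TKO (4 and 9) and 14 in 3B3l (4 and 10). These are 48.8%, 30.2% and 32.6% of the 43, where 22.7%, 15.8% and 13.6% of all tested genes were called. Of the 43 genes, 9 entered the test through 1 group alone, so that a difference from that group was built into their choice: Bmp2, Bmp6, Bmper and Grem1 through J1-serum, Chrdl1 and Nkx2-5 through TKO-serum, and Hand1, Nog and Zeb2 through 3B3l-serum. Over the other 34 genes 14 were called in J1 (4 higher and 10 lower), 9 in TKO (4 and 5) and 11 in 3B3l (4 and 7). Of the 34, Bmp8b, Hjv, Ski, Gata2 and Gata3 entered through serum groups alone and Gdf2 through 2i groups alone. Their choice thus favoured a difference between media, here and in the lists below. Those of them called between media were all lower in 2i. Over the 43 genes, neither group was well above background on any array in 1 J1 call (Gata3), 1 TKO call (Bmper) and 2 3B3l calls (Bmp2 and Gata2). Bmper and Bmp2 are among the 9 genes set aside. Over the 43 genes the median difference was -0.53 in J1, -0.02 in TKO and -0.17 in 3B3l, against 0.05, 0.07 and 0.0031 over all tested genes. Among the named pathway calls, 21 of 46 were lost under at least 1 alternative.

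Of the other BMP ligands, 6 of 13 were tested, Bmp2 and Bmp6 through J1-serum alone. Of the 4 others Bmp7 and Bmp8b were called lower in 2i in J1, Bmp7 was called higher in TKO, and in 3B3l Bmp7 was called higher and Bmp8b lower, where 22.7%, 15.8% and 13.6% of all tested genes were called. Bmp2, a close relative of Bmp4, was well above background in J1-serum alone (mean -1.36) and is given with no test: J1-2i lay at least 4.15-fold and TKO-serum at least 4.54-fold below J1-serum. Bmp7 had opposite responses: its mean level was 0.48 in J1-serum and -0.68 in J1-2i, but -2.13 in TKO-serum and -0.47 in TKO-2i, and -1.64 in 3B3l-serum and -0.47 in 3B3l-2i. Bmp7 rose by 1.66 ± 0.14 in TKO (3.15-fold, limma adjusted p = 1.5e-06) and by 1.17 ± 0.15 in 3B3l (2.25-fold, adjusted p = 9.8e-05). The 3B3l call of Bmp7 was under 2-fold with normexp (0.93) and without 3B3l-serum replicate 1 (0.96). Bmp6, given with no test, had mean levels of -1.44 in J1-serum and -4.30 in J1-2i. Bmp8b was highest in 3B3l-serum (mean 0.34), 5.64-fold above J1-serum (adjusted p = 1.5e-05), where 2 of the 4 arrays were well above background. The primitive endoderm markers were likewise highest in J1-serum, and their part in these ligand differences was not tested.

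Of 11 receptors and co-receptors 7 were tested, and between media 1 was called in each line, the co-receptor gene Hjv, lower in 2i, where 22.7% (J1), 15.8% (TKO) and 13.6% (3B3l) of all tested genes were called. Hjv entered the test through serum groups alone, so its choice favoured a fall in 2i. Its difference was -2.56 ± 0.71 in TKO (limma adjusted p = 0.014), lost without TKO-serum replicate 2 (adjusted p = 0.094), TKO-2i replicate 1 (0.052) or TKO-2i replicate 2 (0.055). In 3B3l Hjv fell by at least 1.71-fold (adjusted p = 0.025), a call lost without either 3B3l-serum replicate, without 3B3l-2i replicate 2, with normexp and with array quality weights. Between lines, Eng, a co-receptor of the TGF-beta family, was 1.54 ± 0.23 lower in 3B3l-serum than in TKO-serum (a difference of -1.54, adjusted p = 0.00039). Acvr2a, a type II receptor, was lower in 3B3l-2i than in J1-2i (-1.17 ± 0.19, adjusted p = 0.00044), and was not called with normexp (-0.89) or slide as a fixed block (-0.80, adjusted p = 0.051). Acvr2b, also a type II receptor, was 1.07 ± 0.21 higher in 3B3l-2i than in TKO-2i (2.1-fold, adjusted p = 0.0021). Its call was lost with quantile normalization (0.93), the authors' table (0.93) and slide as a fixed block (1.23, adjusted p = 0.053). Against J1-2i Acvr2b was 0.89 ± 0.21 higher in 3B3l-2i (adjusted p = 0.0049), under 2-fold.

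Among Smads and intracellular regulators 10 of 11 were tested. Smad1, a transducer of the BMP signal, rose in J1 by 1.13 ± 0.13 (2.19-fold, limma adjusted p = 1.1e-05), and Smad7, an inhibitory Smad, rose in J1 by 1.16 ± 0.27 (2.24-fold, adjusted p = 0.0033). In 3B3l the Smad7 difference of 1.06 ± 0.36 was called (adjusted p = 0.047), but was lost in most alternatives, with the lowest values without 3B3l-serum replicate 1 (0.51, adjusted p = 0.44) and without 3B3l-2i replicate 2 (0.65, adjusted p = 0.35). Smad1 rose in TKO too, by 1.12 ± 0.16 (2.18-fold, adjusted p = 0.00011). On the other side Ski and Skil were called lower in J1, and Skil in TKO and 3B3l. Zeb2, which entered the test through 3B3l-serum alone, is left out of these calls. Skil, a co-repressor of Smads that is described here after its values were seen, differed by -1.03 ± 0.13 in J1 (adjusted p = 2.4e-05), -2.08 ± 0.16 in TKO (adjusted p = 4.5e-07) and -1.26 ± 0.17 in 3B3l (adjusted p = 0.00011). Tob1, an anti-proliferative protein that binds receptor-regulated Smads, rose in 3B3l by 1.33 ± 0.15 (2.51-fold, adjusted p = 2.5e-05). The mean level of Smad7 was above that of J1-serum (0.81) in all other groups, at 1.97 in J1-2i, 1.81 in TKO-serum, 1.90 in TKO-2i, 1.05 in 3B3l-serum and 2.11 in 3B3l-2i. The 2 3B3l-serum arrays had an SD of 0.78, which is wider than their mean's distance from J1-serum.

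Secreted antagonists and modulators had 10 of 15 genes tested. Grem1 and Bmper were well above background in J1-serum alone, with mean levels of -1.44 and -1.14, and are given with no test. Grem1, which binds and blocks BMP ligands, lay below its J1-serum level by at least 3.93-fold in J1-2i and at least 4.31-fold in TKO-serum. For Bmper, a secreted regulator of BMP, the J1-2i bound was at least 4.85-fold. Of 10 tested feeder markers 8 were called lower in J1-2i and 7 in TKO-serum than in J1-serum, and their part in the Grem1 and Bmper differences was not tested. Fst, an antagonist of activins and BMPs, was called higher in 2i in J1 and TKO and lower in 3B3l. It rose in TKO by 1.24 ± 0.24 (2.36-fold, limma adjusted p = 0.0013), and its 3B3l mean was 1.24 in serum and 0.19 in 2i. Nbl1, of the same list, differed by -1.08 ± 0.29 between TKO-2i and J1-2i (2.11-fold lower in TKO, adjusted p = 0.019). This call was lost with normexp (-0.87) and without J1-2i replicate 1 or 3 or TKO-2i replicate 2 or 3. Against TKO-serum, Nbl1 was 1.68 ± 0.36 higher in 3B3l-serum (3.21-fold, adjusted p = 0.0044). That call was lost with slide as a fixed block (adjusted p = 0.2).

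Of the other BMP-responsive genes 7 were tested, Nkx2-5 through TKO-serum alone and Hand1 through 3B3l-serum alone. Over the 7 the median differences between media were -1.53 for J1, -1.20 for TKO and -0.9975 for 3B3l, and over the 5 without these genes they were -1.54, -1.20 and -0.9975. In the order J1, TKO and 3B3l, the medians of the primitive endoderm markers were -4.43, -1.43 and -0.45, and those of the trophoblast markers -0.98, -1.02 and -2.58. Since 7 of 9 primitive endoderm markers were well above background on no J1-2i array, -4.43 is a fitted value and not a size. Feeder markers had medians of -2.11, -0.47 and -0.86, neural markers of 0.24, -0.17 and -1.08, and primitive streak markers of -0.20, 1.12 and 1.81. The part of these markers was not tested. Of the 5 genes none was called higher, while J1 had 4 called lower, TKO 3 and 3B3l 2, where 22.7%, 15.8% and 13.6% of all tested genes were called in either direction. Among them were Gata3 in J1 and Gata2 in 3B3l, with neither group well above background. Gata2 and Gata3 entered the test through serum groups alone, which favoured a lower level in 2i. Dusp9, an ERK phosphatase gene induced by BMP in mESCs, had a mean of 2.33 in J1-serum, -0.08 in J1-2i, 2.82 in TKO-serum, 1.14 in TKO-2i, 3.02 in 3B3l-serum and 2.02 in 3B3l-2i. In 2i Dusp9 was 1.22 ± 0.14 higher in TKO than in J1 (limma adjusted p = 5e-05) and 2.11 ± 0.16 higher in 3B3l than in J1 (adjusted p = 1.1e-06). Gata3, a trophoblast and surface ectoderm factor, fell in TKO by at least 2.23-fold (adjusted p = 4.2e-05) and in 3B3l by at least 2.53-fold (adjusted p = 1.7e-05). Hand1, a trophoblast and mesoderm factor, was well above background in 3B3l-serum alone (mean -1.55), and with no test it lay at least 2.5-fold above J1-serum and at least 3.98-fold above TKO-serum. The trophoblast marker list, which holds Hand1 as well, summed to between 11.3 and 13.7 in 3B3l-serum and to at most 8.8 in the other groups.

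E proteins, the partners that Id proteins bind, were all 3 tested. Tcf4 rose in 2i in each line, by 1.77 ± 0.12 in J1 (3.42-fold, limma adjusted p = 6.2e-08), 1.14 ± 0.14 in TKO (2.2-fold, adjusted p = 3.7e-05) and 1.06 ± 0.15 in 3B3l (2.08-fold, adjusted p = 0.00021). The TKO value was under 2-fold without TKO-serum replicate 2 (0.97), and the 3B3l value under 2-fold with quantile normalization (0.98), normexp (0.88), the authors' table (0.97) and without 3B3l-serum replicate 1 (0.90) or 3B3l-2i replicate 2 (0.93). Tcf12 differed by 0.72 ± 0.14 in J1 (1.65-fold, adjusted p = 0.00078), 0.52 ± 0.17 in TKO (adjusted p = 0.03) and -0.03 ± 0.18 in 3B3l (adjusted p = 0.95), none past 2-fold. Tcf3 differed by 0.19 ± 0.14, 0.31 ± 0.17 and -0.33 ± 0.19, with adjusted p of 0.3, 0.2 and 0.26.

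**Figure D5:**
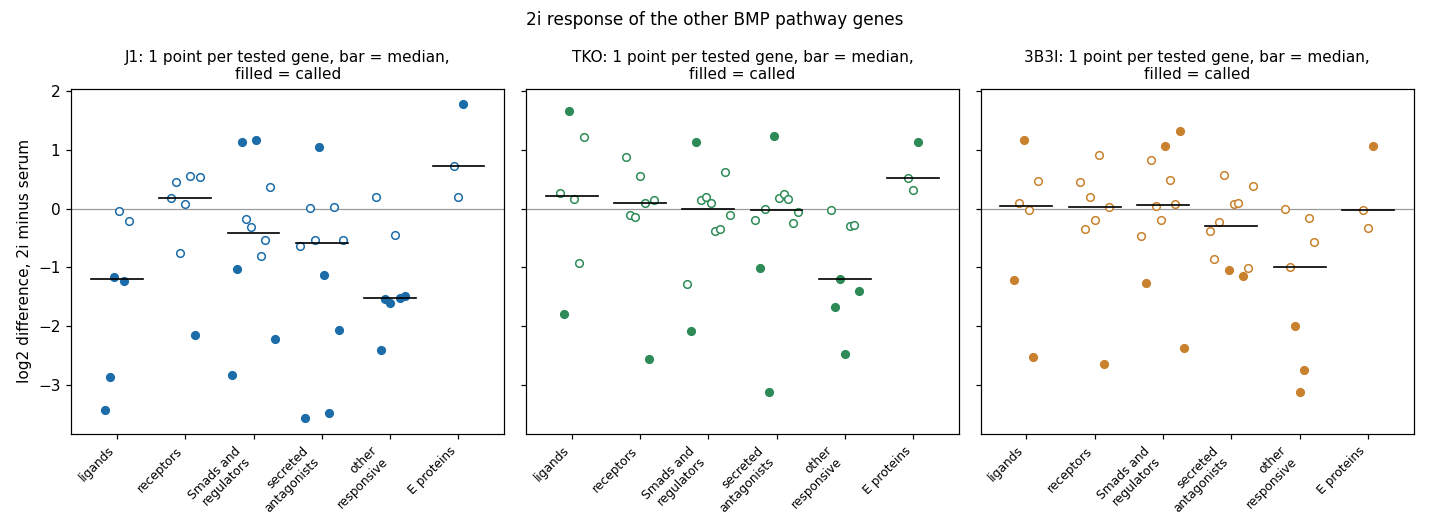
Fitted 2i minus serum difference (log2, vertical axis) of the 43 tested BMP pathway genes that are not members, by list and by line, with 1 point per gene, a bar at the median and filled points where called. The other BMP-responsive genes had medians of -1.53, -1.20 and -0.9975 in J1, TKO and 3B3l, and the E protein called in each line was Tcf4.

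Between TKO and J1, 6 of the 43 pathway genes were called in serum, all lower (14%, against 16.5% of all tested genes), and 5 in 2i, 4 of them higher (11.6% against 7.34%). For 3B3l against J1, 14 were called in serum, 4 of them higher (32.6% against 19.3%), and 8 in 2i, 6 of them higher (18.6% against 14.4%). In 4 of these 8 neither group was well above background. Against TKO, 3B3l had 10 called in serum, 7 of them higher (23.3% against 10.7%), and 3 in 2i, 1 of them higher (6.98% against 9.98%). Over the 34 genes that entered the test through more than 1 group the serum counts were 2 for TKO and J1, 9 for 3B3l and J1 and 5 for 3B3l and TKO, and the 2i counts were 4, 6 and 3. The markers of other cell types called in each comparison are those given beside the members, and their part was not tested.

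The genes whose levels followed the members most closely were ranked by Pearson's r over the 16 arrays, among 2859 genes with group means spanning at least 2 log2 units. The arrays share groups and slides, so r is a description. For Id1 the nearest were Prdx6 (r = 0.979), Timm21 (0.972), Dnmt3l (0.971), Dusp9 (0.967) and Gsto1 (0.967). Dnmt3l is one of the genes carried as a transgene in 3B3l, and its probe was saturated on the TKO-serum and 3B3l-serum arrays. For Id2 they were Gm3383 (r = 0.984), Emb (0.979), Gm5797 (0.978), Fzd2 (0.977) and Pdzd4 (0.977). For Id3 they were Samd9l (r = 0.92), Gpr4 (0.917), Myc (0.916), Mylpf (0.908) and Ccne1 (0.905), all lower than the values for Id1 and Id2. For Tlx2 they were Aqp3 (r = 0.978), Cdx1 (0.973), Myl7 (0.972), Il34 (0.963) and Bdh1 (0.959). Cdx1, a caudal homeobox gene, had means of 1.29 in J1-2i, 2.62 in TKO-2i and 5.33 in 3B3l-2i.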

How the data were processed

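Cy3-labelled RNA of 16 mESC samples was hybridised to SurePrint G3 mouse arrays, scanned on a NimbleGen MS200 scanner and read with Agilent Feature Extraction 11.5.1.1, per the file headers and methods. The deposited scanner files hold processed signal as intensity, background-subtracted by the authors' software and not normalized between arrays. A further deposited table holds the authors' log2 values of 30170 probes; its scaling is not given in the sources used here, and it served as an alternative only. Of its 16 columns 13 matched another array of the same group best.

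From 59305 non-control spots per array, flagged outlier spots were dropped, log2 processed signal was centred on the 75th percentile of each array, and spots were averaged into 55681 probes. Probes were named through their RefSeq identifiers (28026 probes, 21154 genes), and the brightest probe stood for a gene. A 6-group linear model was fitted with limma 3.58.1 in R 4.3.3 with empirical Bayes moderation, and p-values were Benjamini-Hochberg adjusted over 26993 tested probes in each of 11 comparisons. The fit was first tested on simulated data. No pair of arrays was a duplicate: the smallest SD of the log2 difference between 2 arrays of a group was 0.368. The number of arrays limits the precision.

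The members and gene lists were chosen with earlier results of these data known. The text names all members and, from the pathway lists, by rule, at most 3 genes per direction in each comparison with the largest called change and no overlap, all genes of lists of 3, plus 5 genes each by likeness to Id1, Id2, Id3 and Tlx2. Other pathway genes it names were chosen after their values were seen. Alternatives were array median scaling, quantile normalization, normexp (offset 50), the authors' table, stricter and no filters on dim probes, slide and replicate blocks, array quality weights, no fold limit, any probe called, and leaving out each array.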

Additional observations from a re-analysis of the deposited data

Results flagged for a closer look

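In 4 results the response to 2i differed between lines by the limma test of the difference itself. The Id1 response was 1.08 higher on the log2 scale in TKO than in J1. The Msx2 response was 1.41 higher in TKO than in J1 and 2.40 higher in 3B3l than in J1. The Id4 response differed by -2.37 between 3B3l and J1. All 4 values share the J1 arrays, and Msx2 in J1-2i was not well above background, so both Msx2 values are fitted values against a signal at background and not sizes of a difference. Among the 8 members checked in J1-serum, the group with 4 arrays, no array lay apart from the others by Dixon's limit, and the widest gap was 0.764 of the range (Msx1).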

How the results depend on the processing

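Of 309 recomputed counts of members called, 293 stayed within 1.5 times the reported count and 16 did not. Of 4188 recomputed differences of single genes, no called value changed sign, 98 lost their call and 5 gained one, and 68 values called in neither setting changed sign. The 17 values that moved by more than the replicate SD were untested ones of Id2 and Tlx2. With slide as a fixed block the Tlx2 difference of 3B3l and TKO in 2i was 1.70, against 2.65. The cause of these changes was not tested.

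Members called between 2i and serum in 3B3l numbered 1, and 2 with normexp or with no fold limit. Between TKO and J1 in serum the count of members was 0, and 2 with no fold limit. For the difference of responses between TKO and J1 the count of members was 2, against 0 with normexp, 4 with no fold limit and 1 each with array median scaling, the authors' table, the all-array filter, the slide as a fixed block, the replicate block and quality weights. Between 3B3l and J1 it was 2, and 1 with the authors' table or the all-array filter, where Msx2 was not tested. Leaving out 1 array at a time gave 3 to 4 members for J1, 2 for TKO and 1 to 2 for 3B3l between media. Between lines it gave 0 (TKO and J1, serum), 2 to 3 (TKO and J1, 2i), 3 (3B3l and J1, serum), 5 (3B3l and J1, 2i), 3 to 4 (3B3l and TKO, serum) and 4 to 5 (3B3l and TKO, 2i). For the differences of responses it gave 1 to 2 (TKO) and 2 (3B3l). A group left with 1 array was assumed to vary like the others.

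Same-numbered arrays correlated in their deviations from group means at between -0.129 and 0.293 over 9 comparisons. In 2 of them every same-numbered pair was over 0.1, each with 2 pairs only (3B3l between media, and 3B3l and J1 in serum), so the numbers were not taken to pair the samples. The replicate block changed the count of members in 1 comparison, given above. For 3B3l and TKO in serum the crossed pairing, chosen after seeing the data, gave 3 members as before.

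Over all genes, normexp called 626 between TKO and J1 in 2i against 1017. The all-array filter, with 10057 genes tested, called 1438 between media in J1 against 3143, and moved the share of calls that were higher from 44.5% to 58.8% in J1, from 42.4% to 58.5% in TKO, from 51.1% to 63.4% for 3B3l and J1 in serum and from 48.6% to 62.0% for 3B3l and TKO in serum. Array median scaling moved it from 50.7% to 39.5% for the difference of responses of TKO and J1.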
